A study of Oryza sativa with 7 samples.

Results

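The methylome of Pokkali was compared with that of IR64 under control conditions, 2 of the 7 libraries of a whole genome bisulphite sequencing series of rice (Oryza sativa). Pokkali is a salinity-tolerant cultivar, and IR64 is sensitive to drought and salinity. Both control libraries were made from unstressed seedlings, with the DNA of 3 biological replicates pooled into 1 library per cultivar, so differences between replicates could not be measured. A test on the reads of 2 libraries compares those libraries, not the cultivars. The salinity libraries of both cultivars (seedlings in 200 mM salt), which share no library with the control pair, are used below as separate libraries of the same cultivars. The desiccation library of IR64 and the libraries of N22, a drought-tolerant cultivar, are used only for levels.

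Bisulphite converts unmethylated cytosines and leaves methylated ones, so the share of unconverted reads at a cytosine is its methylation level. Plants methylate cytosines in CG, CHG and CHH context, where H is any base but G. CG methylation is copied onto the new strand by enzymes of the MET1 class and is the form found by itself within the bodies of many genes. CHG methylation is kept by chromomethylases together with a histone mark of silent chromatin, and CHH methylation has to be set anew after each replication, largely through the pathway guided by small RNAs. In rice, as in other plants, methylation in all 3 contexts together marks transposable elements and repeats, which are dense around centromeres.

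The tables listed cytosines that were called methylated (mCs), 16741227 on the 12 chromosomes in Pokkali control and 14844134 in IR64 control, at a mean depth of 19.01 and 16.1 reads. A cytosine that was not listed in a library had an unknown status there. There were 11195586 cytosines listed in both libraries, which was 66.9% of those of Pokkali and 75.4% of those of IR64, and only these were compared. Methylated and unmethylated reads were summed in bins of 100 bp, and 1100066 bins with at least 3 shared mCs were tested. The median bin held 8 shared mCs with 135 reads in Pokkali and 110 reads in IR64. A bin was called a differentially methylated region (DMR) when the levels differed by at least 20 percentage points with an adjusted p of at most 0.01 in a two-sided Fisher's exact test.

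Of the tested bins, 49221 were DMRs (4.47%), of which 18347 were higher in Pokkali (1.67% of tested bins) and 30874 were lower in Pokkali (2.81% of tested bins). Between the same cultivars under salinity 3.58% of bins were called, while the salinity library against the control library of the same cultivar gave 0.287% in Pokkali and 0.0528% in IR64. Most bins were close in level in the control pair, with a median absolute difference of 4.67 points over all tested bins. In the DMRs it was 32.7 points (quartiles 25.7 and 43.8). DMRs higher in Pokkali had a median level of 82.1% in Pokkali and 44.1% in IR64, and those lower in Pokkali had 45.2% in Pokkali and 84.3% in IR64. The usual DMR was thus a highly methylated bin in one cultivar and an intermediate one in the other. A read that covers several cytosines was counted at each of them. Counts were therefore also divided by the number of shared cytosines on the strand that held more of them, a lower bound of molecules. With these counts 11250 bins were called, and 29.0% of them were higher in Pokkali. A difference of 50 points or more was found in 8186 DMRs (2748 higher and 5438 lower in Pokkali). A switch between a level of at least 80% and one of at most 20% was found in 395 DMRs higher in Pokkali and 845 lower. Cytosines that failed the call in one library are absent from its table, so very low levels could not be seen.

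The direction of the DMRs moved with read depth. The median log2 ratio of depth (Pokkali over IR64) was 0.10 in DMRs higher in Pokkali, 0.34 in those lower and 0.29 in bins not called. The part of depth in the direction was not tested beyond thinning the deeper library to equal depth at each cytosine, which left 36.1% of DMRs higher in Pokkali, against 37.3% (95% Wilson interval 36.8 to 37.7, counting error only) with all reads.

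The contexts differed in how often they were called. When each context was tested by itself, 37562 of 781473 bins were DMRs in CG (4.81%), 12755 of 485503 in CHG (2.63%) and 4519 of 216696 in CHH (2.09%). Without the limit on the adjusted p the order was another, as a difference of 20 points was found in 6.70% of CG bins, 7.77% of CHG bins and 7.27% of CHH bins. In CG, 1.94% of tested bins were higher in Pokkali and 2.87% lower, in CHG 0.811% higher and 1.82% lower, and in CHH 0.816% higher and 1.27% lower. The share higher in Pokkali was 40.3% (39.8 to 40.8) of the DMRs in CG, 30.9% (30.1 to 31.7) in CHG and 39.1% (37.7 to 40.6) in CHH. Among shared mCs, differences lower in Pokkali were therefore the more frequent in every context and most so in CHG. Bins listed in one control library alone could not be tested, and they were more numerous in Pokkali (170097) than in IR64 (95207). The pooled levels over shared mCs hardly differed, with 84.2% in Pokkali and 83.9% in IR64 for CG, 64.2% and 63.8% for CHG, and 35.1% and 35.6% for CHH, in the same order. Small net differences in level thus stood over many bins that differed in either direction. The sign of the pooled differences was not stable, as the CG difference was 0.304 points over all shared mCs but -0.718 points without depths above the 99th percentile.

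The contexts present in a bin separated the DMRs most clearly. Bins in which only CG cytosines were listed in both libraries, the kind that methylation within gene bodies gives, were 19.4% of tested bins and 52.5% of DMRs. Of these bins 12.1% were called, against 3.09% of bins with CG and CHG, and 1.35% of bins with all 3 contexts. Bins with all 3 contexts had a median of 207 reads in Pokkali and 167 in IR64, and bins with CG alone had 106 and 89. Among bins with at least 50 reads in each library, 13.3% were called with CG alone, 3.62% with CG and CHG, and 1.40% with all 3 contexts. The number of cytosines moved with the kind of bin. Across the arm sections its median was 4 in bins with CG alone and 12 to 13 in bins with all 3 contexts. Among bins with at least 5 shared cytosines, 11.3% were called with CG alone and 1.33% with all 3 contexts. Bins with equal numbers of cytosines were not compared. The DMRs with CG alone were mostly lower in Pokkali (33.4% higher), while the DMRs with all 3 contexts were nearly even (48.9% higher). Bins with no CG were called in 4.66% and had the smallest share of DMRs higher in Pokkali (28.7%).

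**Figure D1:**
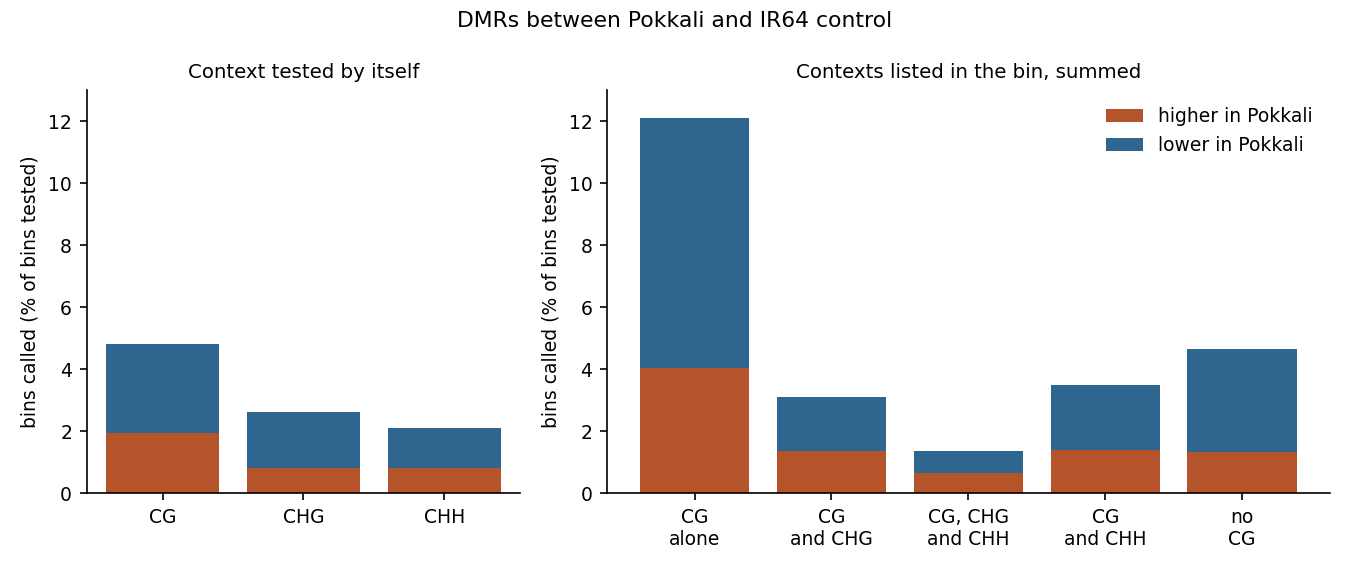
Percent of tested 100 bp bins called as DMRs between Pokkali and IR64 control, split into those higher and lower in Pokkali, for each context tested by itself (left) and for bins by the contexts listed in both libraries, with reads of all contexts summed (right). Bins with CG alone stand at 12.1%, and bins with all 3 contexts at 1.35%.

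Whether the contexts changed together was asked in bins tested in more than 1 context. Of 4418 CG DMRs that were also tested in CHG, 22.8% were called in CHG, against 1.95% of all bins tested in both. Of those called in both, 976 had the same sign and 31 the opposite one. CG and CHG differences thus went in one direction where both were called. In the reverse direction 14.9% of 6754 CHG DMRs were called in CG, where the share over all such bins was 1.27%. The median CG level in these CHG DMRs was 92.5% in Pokkali and 92.8% in IR64. These CHG DMRs thus typically lay in sequence with a high CG level in both cultivars. In CHH, calls coincided with both other contexts, but signs did so with CHG alone. Of CHG DMRs tested in CHH 9.44% were called in CHH, where the share over all such bins was 1.46%, and 66 of these 73 bins had the same sign. Of CG DMRs tested in CHH 5.68% were called in CHH, against 1.67% of all bins tested in both, but 31 of these 81 bins had the same sign and 50 the opposite one.

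CG and CHG sites are symmetric, so the opposite strand carries the same kind of site and is measured by other reads. Bins were called on the cytosines of the plus strand alone and then looked up on the minus strand. Of 8910 such CG DMRs, 96.0% (95.6 to 96.4) had the same sign on the minus strand, against 54.9% of all bins tested on both strands. Of these DMRs 54.9% were also called there with either sign, and 2 of them had the opposite sign. In CHG, 95.2% of 3214 had the same sign and 0 were called with the opposite one. The strands come from the same libraries, so this does not stand in for a replicate.

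The DMRs were spread over all 12 chromosomes with a narrow range in frequency, between 4.16% of bins on chromosome 8 and 4.95% on chromosome 12. The direction varied more. DMRs higher in Pokkali made up 31.0% (29.5 to 32.5) on chromosome 12 and 44.5% (43.1 to 46.0) on chromosome 5. CHG had its lowest share on chromosome 11, with 22.4% higher, and its highest on chromosome 3, with 37.2%. DMRs lower in Pokkali were the majority on each chromosome with all contexts summed. Pooled CG levels differed by between -0.890 points on chromosome 1 and 4.68 points on chromosome 9. The chromosome 9 value rested on cytosines of extreme depth. When cytosines above the 99th percentile of depth were left out, 2.84% of its shared CG cytosines and 45.3% of their reads were lost and the difference became -0.60 points. Without such cytosines the CG level was lower in Pokkali on all 12 chromosomes, between -1.68 points on chromosome 12 and -0.15 points on chromosome 11.

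Along the arms, DMRs were more frequent towards the chromosome ends. Each arm was divided into 5 equal sections between the centromere, placed to the nearest Mb, and the chromosome end. The percent of bins called was 3.32% in the section nearest the centromere, then 4.26%, 4.85% and 4.89%, and 5.70% in the section nearest the end. The outer section exceeded the inner section in 24 of 24 arms, by between 0.013 points on the long side of chromosome 5 and 5.89 points on the short side of chromosome 7. The inner section was the lowest of its arm in 18 arms, and the outer section the highest in 17 arms. The placing of the centromeres was checked against mC density. IR64 control listed 29.3 CG mCs per kb within 1 Mb of the centromeres and 15.5 beyond 8 Mb, and the percent of bins called was 2.61% and 5.22% at these distances.

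The increase was seen in CG and CHH, while CHG was flat. CG DMRs were 6.60% of tested bins in the outer section and 3.04% in the inner section. CHH DMRs were 2.20% in the outer section and 1.54% in the inner section, and CHG DMRs were 2.60% and 2.76% in that order. The make-up of the bins moved with position, since bins with CG alone were 27.3% of tested bins in the outer section and 12.95% in the inner section. Within bins of one kind the outer section was higher with CG alone (13.4%, against 9.94% in the inner section), with CG and CHG (3.72% against 2.51%) and with all 3 contexts (1.46% against 1.06%). It was nearly level with CG and CHH (3.52% against 3.36%) and lower with no CG (4.08% in the outer section, against 5.79% in the inner section). Median reads per bin were alike, with 133 in Pokkali and 110 in IR64 in the outer section and 139 and 113 in the inner section. The direction went opposite ways in CG and CHG. The share of DMRs higher in Pokkali was 33.9% in the outer section and 46.6% in the inner section in CG, but 39.7% in the outer section and 26.5% in the inner section in CHG, and no test of this crossing was made.

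**Figure D2:**
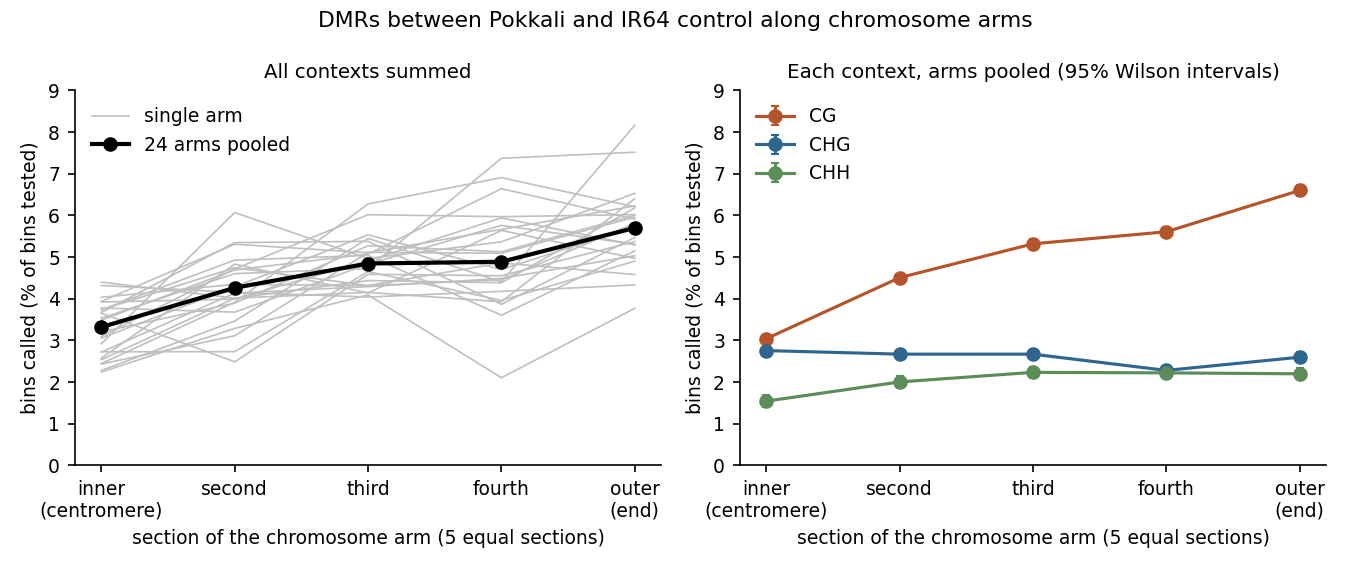
Percent of tested bins called between Pokkali and IR64 control in 5 sections of the chromosome arms, for each of 24 arms and the pooled arms with all contexts summed (left) and for each context with 95% Wilson intervals of counting error (right). The CG line climbs to 6.60% at the chromosome ends, and the CHG line stays between 2.28% and 2.76%.

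Windows of 1 Mb were ranked by the percent of bins called, which rests on shared mCs only. Among 377 windows with at least 500 tested bins, the percent called was between 0.898% and 9.96% with a median of 4.54%. The lowest window was on chromosome 11 from 12 to 13 Mb, with 38 DMRs in 4230 bins (0.898%, interval 0.655 to 1.23). It was followed by windows on chromosome 4 from 8 to 9 Mb (1.44%), chromosome 3 from 19 to 20 Mb (1.58%), chromosome 6 from 18 to 19 Mb (1.63%) and chromosome 12 from 16 to 17 Mb (1.78%). The windows on chromosomes 11, 4 and 3 lay within 2 Mb of a centromere. In the window on chromosome 12 only 38.3% of the mCs listed in either library were shared, against 59.2% to 65.2% in the other low windows. A low percent called there does not cover the mCs listed in one library alone.

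The highest window was on chromosome 7 from 1 to 2 Mb, with 217 DMRs in 2178 bins (9.96%, interval 8.78 to 11.3). The next was on chromosome 1 from 4 to 5 Mb, with 220 in 2367 bins (9.29%), of which only 21.8% were higher in Pokkali. The other high windows lay in the distal part of chromosome 11, from 22 to 23 Mb (9.04%), 27 to 28 Mb (8.73%) and 23 to 24 Mb (8.65%). Shared mCs were between 32.1% and 59.0% of those listed in either library in the 5 high windows. In the salinity pair, where 3.58% of all bins were called, the 5 high windows had between 6.25% and 8.15% and the 5 low ones between 0.975% and 1.93%. They were not all the extremes there. Chromosome 2 from 0 to 1 Mb had 7.45% under salinity, above the 6.25% of the window on chromosome 1. Chromosome 4 from 2 to 3 Mb had 1.41%, below the 1.93% of the low window on chromosome 12. Across 360 windows with at least 50 DMRs in both pairs, the percent called correlated between the control and the salinity pair with a Pearson r of 0.941, and the share higher in Pokkali with 0.809. Windows are not replicates, and the pairs share the cultivars and the bin content.

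The direction of DMRs also differed in blocks. The share higher in Pokkali was between 11.5% and 69.8% across 369 windows with at least 50 DMRs, and it was above 50% in 36 of them. One block was at the start of chromosome 2. In its first 5 Mb, 1058 of 13681 bins were DMRs (7.73%) and 64.9% of them (62.0 to 67.8) were higher in Pokkali, against 35.9% (34.4 to 37.4) of 4087 DMRs on the remainder of the chromosome. The 5 windows of 1 Mb ranged from 58.5% to 69.8%, and the next window, from 5 to 6 Mb, had 39.9%. The stretch was chosen after the window values were seen.

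The block was found in CG and, more strongly, in CHG. In CHG, 85.1% (78.8 to 89.8) of 161 DMRs of the block were higher in Pokkali, against 26.5% of 1035 on the remainder of the chromosome, and in CG it was 64.5% of 943 against 39.3% of 3103. In CHH it was 48.4% (36.6 to 60.4) of 64 against 41.7% of 398, with overlapping intervals. The log2 depth ratio of the bins was the same in the block (0.30) as on the remainder of the chromosome (0.29). In the salinity pair, 67.7% (64.5 to 70.7) of 854 DMRs in the block were higher in Pokkali, against 37.9% on the remainder of the chromosome. The separate libraries therefore gave the same block. A smaller block on chromosome 5 from 14 to 17 Mb had 59.0% (54.7 to 63.1) of 529 DMRs higher in Pokkali, and 62.2% in the salinity pair. This block was found in CG, with 65.6% (60.7 to 70.1) of 389 DMRs higher. In CHG only 38.0% (31.3 to 45.2) of its 184 DMRs were higher.

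The interval of chromosome 1 that holds Saltol, a salt tolerance locus mapped from Pokkali, was close to the chromosome average with all contexts summed. From 10 to 13 Mb, 458 of 9562 bins were DMRs (4.79%), against 4.77% on the whole chromosome, and 40.8% (36.4 to 45.4) were higher in Pokkali, against 35.9% (34.6 to 37.2). In CHH, 55 of 1692 bins of the interval were DMRs (3.25%), against 2.29% on the whole chromosome.

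DMRs lay close to each other. Of all DMRs, 28.8% (28.4 to 29.2) had a DMR in a bin directly next to them, against 4.23% of all tested bins. Where the bin next to a DMR was tested, 33.3% were DMRs, and the share dropped to 20.7% at 300 bp, 11.9% at 1000 bp, 6.05% at 5000 bp and 4.73% at 50000 bp, close to the background of 4.47%. Neighbouring DMRs had one direction. The sign was the same in 98.1% of pairs at 100 bp, 85.6% at 1000 bp and 55.5% at 50000 bp, where the overall shares of the directions alone give 53.2%. The excess was thus largest within 1 kb and was still seen at 10000 bp, with 5.27% called. Up to 2000 bp it was larger around DMRs lower in Pokkali, with 9.81% of bins called at 2000 bp from them and 6.66% from those higher. At 5000 bp the directions were close, with 6.16% called from lower DMRs and 5.87% from higher ones.

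**Figure D3:**
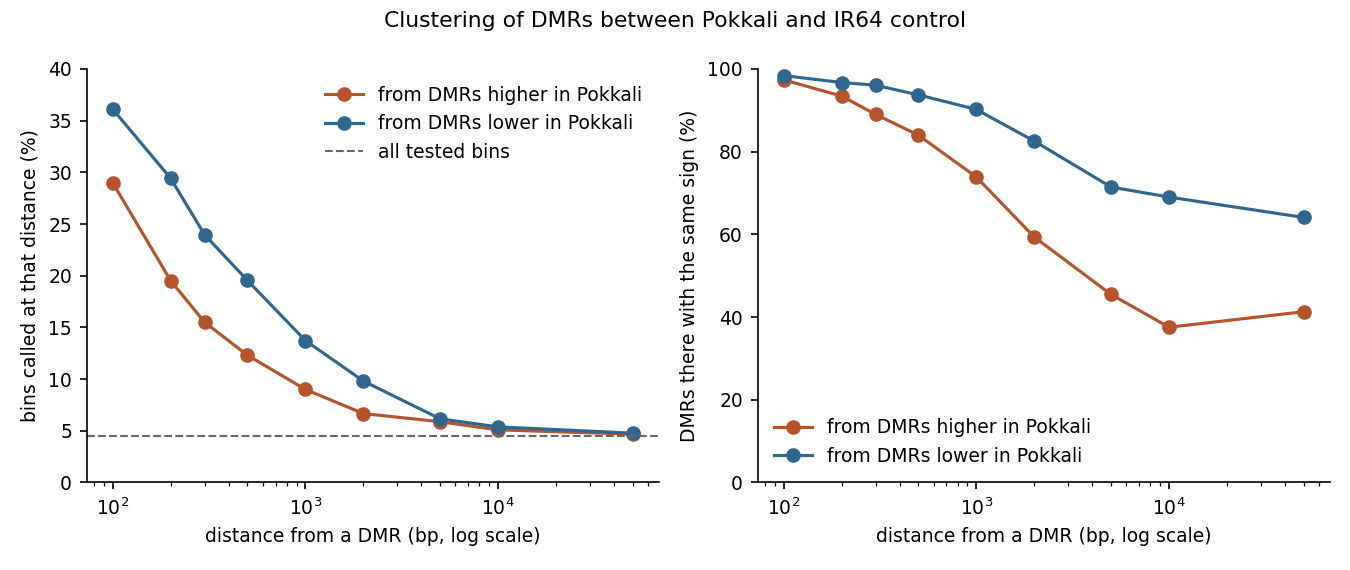
Percent of tested bins called at a given distance from a DMR (left, dashed line at the background of 4.47%) and percent of those DMRs with the same sign (right), for DMRs higher and lower in Pokkali control, with distance in bp on a log scale. Both decline with distance, with most of the drop in bins called within 2000 bp. The line for DMRs lower in Pokkali lies above that for higher ones. On the right the backgrounds of the lines differ, since 37.3% of all DMRs were higher in Pokkali and the others lower.

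DMRs of one sign with at most 1 bin between them were joined into runs. There were 14815 runs higher in Pokkali, of which 84.4% were single bins, and 23293 lower in Pokkali, of which 81.0% were single. Runs of 3 or more DMRs numbered 643 among higher and 1454 among lower runs, and runs of 10 or more numbered 14 and 52. Long runs differed from single DMRs in direction, context and position. From single DMRs to those in runs of 10 or more, the share higher in Pokkali was 39.9% and 21.6%, the share of bins with CG alone 57.0% and 6.28%, and the share in the inner section of an arm 17.3% and 36.6%. Of all 1100066 tested bins, 282946 lay in the inner section, and 19.4% held CG alone. Single DMRs were thus mainly CG differences, while DMRs in long runs lay more often in the inner section than single DMRs and held other contexts. A run needs tested bins next to each other, and mCs were denser near centromeres. The part of this in the position of runs was not tested. These long runs were on all 12 chromosomes, with 12 on chromosome 11 and 8 each on chromosomes 1 and 8.

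Most of the long runs were CHG differences. CHG made up a median of 63.8% of the shared mCs of the 66 runs, against 29.5% of all shared mCs. In the 62 runs with enough cytosines of both contexts, the CHG level differed by at least 20 points in 62 and the CG level in 20. The remaining 42 of these runs differed by 20 points in CHG and not in CG. Of the other 4 runs, which held too few cytosines of one context, 3 were differences in CG with at most 1 CHG cytosine, on chromosome 1 at 922101 (53.1% in Pokkali and 83.9% in IR64 in CG) and on chromosome 7 at 1961501 (38.0% in Pokkali and 92.9% in IR64) and 9827501 (93.8% in Pokkali and 44.5% in IR64). In runs higher in Pokkali the median CHG level was 72.6% in Pokkali and 31.4% in IR64, and in runs lower in Pokkali it was 30.6% in Pokkali and 78.7% in IR64. The median CG level was 94.2% in Pokkali and 66.9% in IR64 in the higher runs and 83.3% in Pokkali and 93.2% in IR64 in the lower runs. Most of these stretches of 1 kb or more thus had CG levels within 20 points of each other while their CHG levels differed. In the salinity pair, the CHG difference had the same sign in 63 of 63 runs with values and was at least 20 points in 62 of them.

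**Figure D4:**
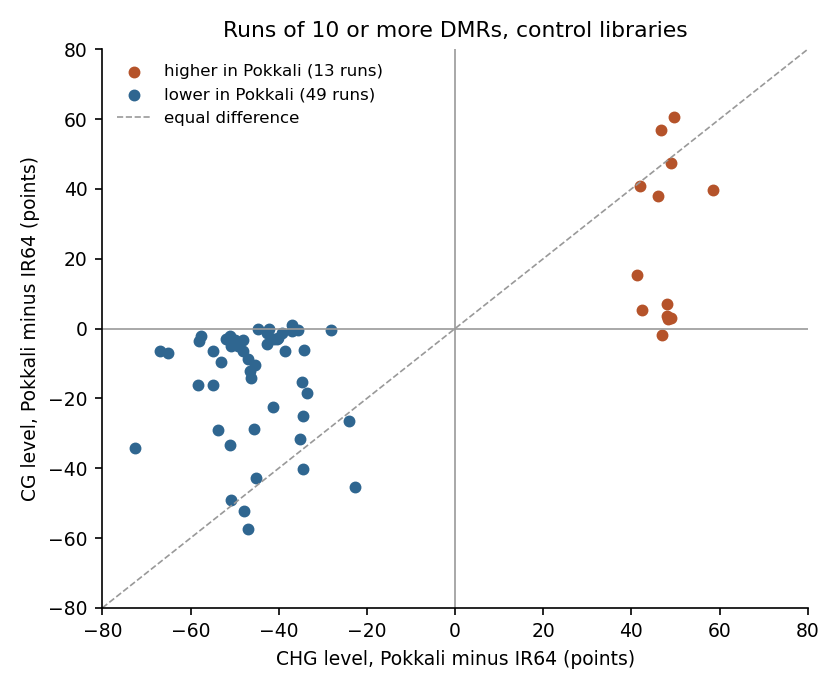
CHG level difference (horizontal) and CG level difference (vertical) between Pokkali and IR64 control, in percentage points, for 62 runs of 10 or more DMRs with both contexts. All points lie at least 22.7 points from 0 on the CHG axis, while most of the 49 runs lower in Pokkali lie near 0 on the CG axis.

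The longest runs were read by context. The longest run lower in Pokkali was on chromosome 9 at 9150501 to 9154100 and held 32 DMRs over 3600 bp. Its CHG level was 34.4% in Pokkali and 82.5% in IR64, while its CG level was 88.7% and 91.9%. It was 34.4% and 82.2% in CHG in the salinity libraries of Pokkali and IR64. The next was on chromosome 2 at 15635801 to 15638500, with 25 DMRs. Of its 205 shared mCs 193 were CHG, with a level of 30.2% in Pokkali and 77.2% in IR64. The run on chromosome 11 at 14623001 to 14625900, with 24 DMRs, had 41.4% in Pokkali and 81.6% in IR64 in CHG and 91.1% and 93.9% in CG. These runs share a CHG level far below that of IR64 and a CG level close to it, with the widest CG gap in the run on chromosome 2 (70.9% in Pokkali and 79.7% in IR64 over 8 cytosines).

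Among runs higher in Pokkali the same pattern was found in 2 of the 3 longest. The longest was on chromosome 8 at 22060801 to 22063200, with 21 DMRs over 2400 bp. Its CHG level was 81.1% in Pokkali and 32.9% in IR64, and its CG level 94.3% and 91.6%. The run on chromosome 10 at 9152501 to 9154500, with 18 DMRs, had 83.9% in Pokkali and 35.0% in IR64 in CHG and 97.4% and 94.3% in CG, although it held only 6 shared CG cytosines. The run on chromosome 2 at 2607201 to 2609100, with 19 DMRs, differed in both contexts, with 81.9% in Pokkali and 35.9% in IR64 in CHG and 93.9% and 55.9% in CG. It lies in the block at the start of chromosome 2. Its levels over all contexts were 83.2% in Pokkali and 42.9% in IR64 under salinity and 85.6% in N22 control. The run on chromosome 8 had 0 of its 294 shared mCs listed in either N22 library. Depth was uneven in these runs, with 5434 reads in Pokkali and 11635 in IR64 over the run on chromosome 8. The run on chromosome 2 had 12813 reads in Pokkali and 6736 in IR64, and that on chromosome 10 had 3587 and 2312. With reads thinned to equal depth, the difference over all contexts was 36.9 points in the run on chromosome 8, against 38.8 with all reads. It was 43.4 against 42.1 points on chromosome 2, and 43.3 against 44.9 points on chromosome 10. The part of depth in these runs was not tested further.

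The largest single differences were near complete switches. They were taken among DMRs with at least 5 shared cytosines, at least 50 reads per library, no extreme depth and a called neighbour of the same sign. Under these limits the bin farthest above IR64 was on chromosome 8 at 5235701 to 5235800. It held 6 CG cytosines at a level of 95.8% in Pokkali (166 reads) and 9.71% in IR64 (175 reads, adjusted p = 2.83e-63, Fisher's exact test). In the salinity libraries all 6 were listed in Pokkali at 85.0%, and 1 of 6 in IR64 at 18.5%. The bin on chromosome 7 at 5795901 to 5796000 had 96.3% in Pokkali (81 reads) and 13.2% in IR64 (144 reads). Both of these bins held CG alone, and both were high in N22 control, at 95.5% and 96.1%. The bin on chromosome 4 at 20190701 to 20190800, with 4 CG and 2 CHG cytosines, had 96.7% in Pokkali and 13.7% in IR64, and all 5 tested bins within 1 kb of it were DMRs.

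Under the same limits, the 3 bins farthest below IR64 held more than CG. On chromosome 6 at 12999401 to 12999500, 2 CG and 3 CHG cytosines had a level of 14.9% in Pokkali (114 reads) and 98.3% in IR64 (116 reads). On chromosome 8 at 4306801 to 4306900, the level was 13.8% in Pokkali (116 reads) and 95.8% in IR64 (71 reads), and the cytosines were not listed in Pokkali salinity. On chromosome 11 at 5913101 to 5913200, 10 cytosines had 16.1% in Pokkali (261 reads) and 97.5% in IR64 (120 reads, adjusted p = 4.29e-54, Fisher's exact test). The bins on chromosomes 6 and 11 were in clusters, as 8 of 10 tested bins within 1 kb of the bin on chromosome 6 and 9 of 13 around the bin on chromosome 11 were DMRs.

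Each context had its own extremes. In CG, a bin on chromosome 2 at 6247701 to 6247800 had 96.9% in Pokkali and 8.40% in IR64, and one on chromosome 11 at 6467401 to 6467500 had 14.4% in Pokkali and 100% in IR64. In CHG, a bin on chromosome 4 at 17066201 to 17066300 had 100% in Pokkali and 12.9% in IR64, and one on chromosome 6 at 8829201 to 8829300 had 14.1% in Pokkali and 97.0% in IR64. The CHG bin on chromosome 6 lies in a long run, as all 14 tested bins within 1 kb of it were DMRs. In CHH, a bin on chromosome 5 at 15723201 to 15723300 had 79.5% in Pokkali and 15.5% in IR64, and one on chromosome 3 at 632201 to 632300 had 16.3% in Pokkali and 90.3% in IR64 over 11 cytosines. This CHH bin stood alone, since 0 of 9 tested bins within 1 kb were DMRs, and its level in the salinity libraries was 39.0% in Pokkali and 76.3% in IR64.

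The DMRs were then looked up in the salinity pair, in libraries that had no part in choosing them. Of all DMRs, 39972 (81.2%) were tested there, and 95.2% had the same sign, against 59.0% of all bins tested in both pairs. The share grew with the size of the difference, with 92.1% at 20 to 30 points, 96.7% at 30 to 40 points, 98.8% at 40 to 50 points and 99.8% at 50 to 60 points. It was 98.0% in bins with CG alone, 89.2% in bins with all 3 contexts, and 99.3% in runs of 3 or more DMRs. The direction thus held in nearly all of the large or clustered DMRs and was between 94.3% and 95.8% on each chromosome. Fewer were called again, as 54.2% of the DMRs tested there were also DMRs of the same sign under salinity. This was 35.2% at 20 to 30 points and 89.7% at 50 to 60 points. It was 62.7% in bins with CG alone and 36.5% in bins with all 3 contexts.

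CHH was the exception. CG DMRs kept their sign in 97.2% and CHG DMRs in 96.7%, but CHH DMRs in 71.2% (69.7 to 72.6), against 54.0% of all bins tested in CHH in both pairs. Among CHH DMRs higher in Pokkali it was 86.9%, and among those lower 60.4% (58.3 to 62.4). The median difference of the lower CHH DMRs was 26.7 points in the control pair and 3.42 points in that direction under salinity. CHH DMRs lower in Pokkali thus had little counterpart in the salinity libraries, where 2.46% of bins tested in CHH were called and 85.0% of those 4521 DMRs were higher in Pokkali.

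Levels of the DMRs were read in all 7 libraries where at least 3 of their shared mCs were listed. DMRs higher in Pokkali control had median levels of 80.4% in Pokkali salinity, 53.7% in IR64 salinity and 52.0% in IR64 desiccation. DMRs lower in Pokkali control had 54.1% in Pokkali salinity, 83.7% in IR64 salinity and 83.9% in IR64 desiccation. The cultivar with more methylation thus had a like level in its other libraries. The cultivar with less methylation was higher in its other libraries than in the control that chose the DMRs (44.1% in IR64 and 45.2% in Pokkali). On that side values were found for only 79.6% to 81.3% of DMRs, and bins with little methylation are the less likely to be listed. N22 was high in both groups, with 84.1% in N22 control for DMRs higher in Pokkali and 85.3% for those lower. Of the DMRs with a value in N22 control, its level was nearer to Pokkali in 87.2% of 13948 higher ones and nearer to IR64 in 89.8% of 22130 lower ones. In these bins N22 thus mostly shared the level of the cultivar with more methylation. A bin with little methylation in N22 is the less likely to be listed there, and values were found for 76.0% of higher and 71.7% of lower DMRs.

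**Figure D5:**
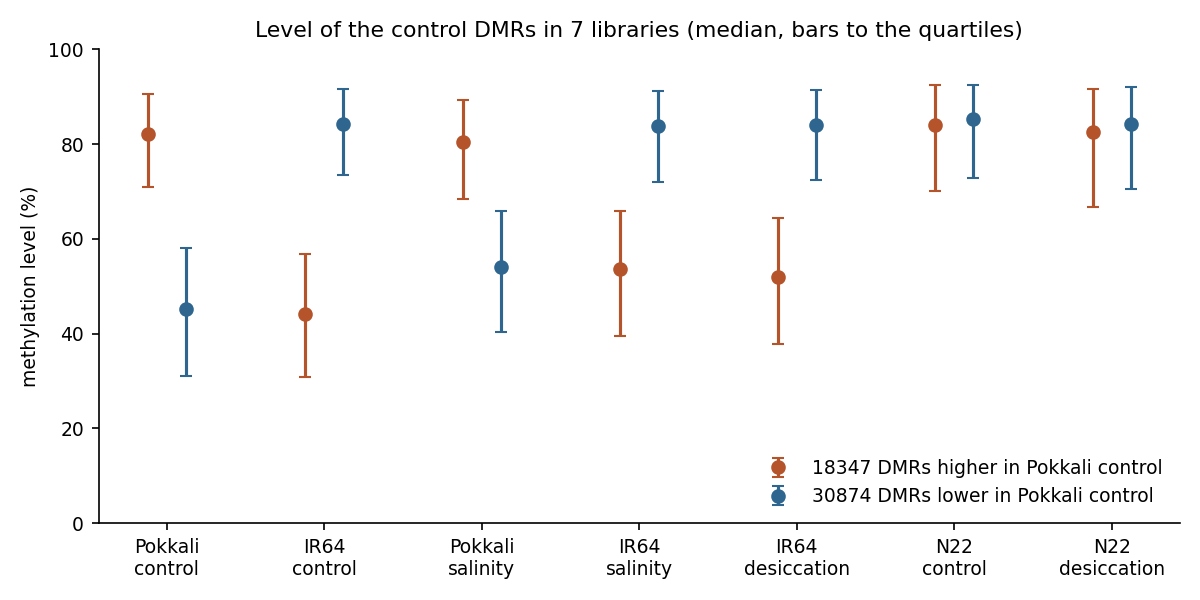
Methylation level in percent of DMRs higher and lower in Pokkali control than in IR64 control, as median with bars to the quartiles, in the 7 libraries of the series. The stress libraries of Pokkali and IR64 lie near the control of their cultivar where it is high and above it where it is low. Both N22 libraries are above 80% in median for either group.

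Some bins were listed in one library alone. Bins with at least 3 mCs in one control library and none in the other numbered 170097 in Pokkali (11.9% of its bins) and 95207 in IR64 (7.29%). Of these, 5019 in Pokkali and 2420 in IR64 lay between bins tested in both. A bin missing from a table can lack methylation, coverage or the sequence itself, and these cannot be told apart here. Under salinity, 23.9% of the 5019 and 34.3% of the 2420 were again listed in the same cultivar and not in the other. The same share was not computed for other bins, so whether these values exceed a background was not tested.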

How the data were processed

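Whole genome bisulphite sequencing data of 7 rice libraries were used, with 1 library per group. For the control libraries the authors aligned reads to the MSU release 7 genome with Bismark and called methylated cytosines with methylKit, by a binomial test at p 0.001 with at least 5 reads. How the stressed libraries were processed is not given in the sources used here, but their tables have the same columns and minimum depth. Each deposited table gave the read count (depth) of each called cytosine and its methylation level as a percent, neither normalized. Methylated reads were depth multiplied by level, rounded. The calling error rate differed between libraries.

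Cytosines listed in both libraries were paired by position and strand, and 993 listed with different contexts entered only the sums over contexts. Summed reads per 100 bp bin with at least 3 shared cytosines were compared by a two-sided Fisher's exact test, with Benjamini-Hochberg adjustment over all tested bins of a comparison in place of the correction used in the study. Counts at neighbouring cytosines of one read are not independent, so p-values can be too small. Wilson intervals are at 95% and cover counting error only. The test was checked on simulated data.

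Named bins were the 3 higher and 3 lower DMRs with the largest difference among those with at least 50 reads per library, at least 5 shared cytosines, no depth above the 99th percentile and a called neighbour of the same sign. Named runs were the 3 with most DMRs in each direction, named context bins the largest difference in each context and direction under the same limits on reads and depth, and named windows the 5 highest and 5 lowest. Members and lists were chosen with earlier results of these data known. Genes and sequences were not used here, since the annotation at hand is of another assembly. Alternatives changed depth, calling error, bins, weighting, limits and CG density. Python 3.11.15, numpy 2.4.6, scipy 1.17.1 and numba 0.67.0 were used.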

Additional observations from a re-analysis of the deposited data

Results flagged for a closer look

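The pooled level difference between Pokkali and IR64 had opposite signs in the control and the salinity pair in 2 contexts, and with 1 library per group the difference between the pairs was not tested. In CG it was -0.43 points under salinity and 0.304 points in the control pair, and the control value changed sign with depth limits and weighting. In CHH it was 1.62 points under salinity and -0.563 points in the control pair. CHH DMRs went the same way, with 85.0% of 4521 (2.46% of tested bins) higher in Pokkali under salinity, against 39.1% of 4519 in the control pair. CHG had the same sign in both pairs, with 1.17 points under salinity and 0.421 points in the control pair.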

How the results depend on the processing

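No paired analysis was possible because each group had 1 library, and leave-one-out values do not exist for the same reason. The alternatives moved counts more than directions. In all of them DMRs lower in Pokkali were the majority, the outer section of the arms exceeded the inner section, and over 90% of DMRs kept their sign in the salinity pair. The 12 named bins were called in 130 of 130 values computed, but 26 of 156 values had no test. In those a bin held too few shared cytosines or belonged to the other class of CG density. The bins were chosen for the largest differences in these data, so this count carries little information on other DMRs. With the common error rate 6 of the 12 bins were not tested, and with shifted bins 5. Signs of the pooled level differences were not stable, and their cause was not tested.

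The largest change came from dividing counts by the number of shared cytosines on the strand that held more of them, a lower bound of molecules. It left 11250 DMRs (11232 in CG, 2014 in CHG and 4 in CHH), of which 29.0% were higher in Pokkali, 22.6% had a DMR in the next bin and 99.9% kept their sign under salinity, with 0.832 points between outer and inner section. At least 5 shared cytosines left 29124 DMRs (17679 in CG and 8151 in CHG), 39.5% higher, 25.6% with a DMR next to them, 94.4% of kept sign and 1.61 points between sections. A limit of 30 points left 28937 DMRs (24209 in CG, 8134 in CHG and 1710 in CHH), 36.4% higher, 26.6% with a DMR next to them, 98.0% of kept sign and 1.49 points between sections. Bins with few CG cytosines held 17264 DMRs (6147 in CG and 6820 in CHG), 18.3% with a DMR next to them, 91.3% of kept sign and 0.635 points between sections. Bins with many CG cytosines held 31751 DMRs (5950 in CHG and 1484 in CHH), with 22.3%, 97.1% and 3.41 points for the same measures.

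The share of DMRs higher in Pokkali was 35.9% at a minimum depth of 10 reads, 34.3% with an error rate of 1% in both libraries, 36.1% with reads thinned, 35.2% in 200 bp bins and 36.5% with cytosines weighted equally. A DMR lay in the next bin for 26.8% at a depth of 10, 27.8% with the common error rate and 30.5% in 200 bp bins. The sign was kept under salinity in 96.3% at a depth of 10, 96.1% thinned, 96.0% in 200 bp bins and 95.7% weighted equally. The sections differed by 2.70 points at a depth of 10, 2.12 thinned and 2.96 in 200 bp bins. Thinning left 2859 CHH DMRs.

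The CG level difference was -0.0667 points thinned, -0.394 with equal weights, -0.718 without depths above the 99th percentile, 0.0416 with the common error rate, 0.27 at a depth of 10, 0.755 in bins with many CG and 0.494 over cytosines listed in all 7 libraries. The CHG difference was -0.894 in bins with few CG, -0.439 without extreme depths, 0.304 with the common error rate, 0.323 with equal weights, 0.526 at a depth of 10, 1.15 thinned, 1.17 in bins with many CG and 0.987 over cytosines of all 7 libraries. The CHH difference was 0.275 over those cytosines, and otherwise -1.11 with few CG, -0.0928 with many CG, -0.527 at a depth of 10, -1.02 with the common error rate, -0.264 thinned, -0.855 with equal weights and -1.03 without extreme depths.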
